A study of Mus musculus with 4 samples.

Results

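The 42 genes described here encode the machinery of DNA replication, the machinery of mitosis, and the cyclins, inhibitors and transcription factor of the G1 phase. They were taken by symbol from a list of 42 named genes, and all 42 were among the 12799 genes with values, 17 of them in the replication class, 17 in the mitotic class and 8 in the G1 class. Their transcripts were read in mouse bone marrow-derived monocytes that were becoming osteoclasts, the multinucleated cells that resorb bone, and the classes were compared to see how proliferative each library was on day 3.

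The marrow came from female mice 12 weeks of age. Non-adherent cells were taken after 2 days and grown with M-CSF, the growth factor of the monocyte lineage, at 30 ng/mL. They were then cultured for 3 days with M-CSF at 30 ng/mL and RANKL, the cytokine that induces osteoclasts, at 50 ng/mL. Control cells were Piezo1 fl/fl, with both alleles of the stretch-activated channel gene Piezo1 flanked by loxP sites and no Cre (n = 2 libraries). Knockout cells were Csf1r-iCre;Piezo1 fl/fl, in which a Cre under the promoter of the M-CSF receptor gene is active in monocyte lineage cells (n = 2 libraries). Because the controls carry no Cre, effects of the transgene and of Piezo1 loss cannot be told apart. The sources used here do not give the strain, nor whether a library holds 1 animal or a pool. The submitters call the 2 libraries of a genotype biological replicates, so the p-values below set differences against the spread between such libraries. For each gene that spread is partly estimated from other genes.

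A dividing cell first loads the MCM helicase onto replication origins with the help of Cdc6 and Cdt1, a step called licensing. In S phase Cdc45 and the GINS complex activate that helicase, and DNA polymerases held by the clamp PCNA copy the genome from nucleotides that ribonucleotide reductase and thymidylate synthase supply. Cyclin B and Cdk1 then drive the cell into mitosis, where Aurora and Polo kinases, kinesins and kinetochore proteins segregate the chromosomes. The D-type and E-type cyclins act earlier, in G1, and are held in check by the inhibitors p21 and p27. Monocyte precursors proliferate in response to M-CSF and leave the cell cycle as they fuse into osteoclasts, so a culture on an early day can hold both dividing and non-dividing cells.

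The 4 libraries held between 14122118 and 18897927 gene reads, and 1 read was worth between 0.0544 and 0.0700 CPM, reads per 1e6 of a scaled library size. Piezo1 was at 430.1 and 384.5 CPM in control 1 and control 2, and at 60.98 and 56.15 CPM in knockout 1 and knockout 2, as the labels imply (log2 fold change −2.79, limma adjusted p = 8.23e-05). Of 11781 genes tested with limma, 19 (0.161%) passed an adjusted p under 0.05, 5 higher and 14 lower in the knockouts. All 8 macrophage markers and all 10 osteoclast markers passed the filter on low values. Cd68, a lysosomal protein of macrophages, lay between 1279 and 1607 CPM, and the protease gene Ctsk between 23060 and 26660 CPM. All 10 stromal markers had values above 0 in every library, led by the collagen gene Col1a2. None of the 8 lymphoid markers listed entered the limma test, which took only genes passing that filter. Of the 5 progenitor markers 4 had values, none of which passed the filter, and Mecom was at 0 reads in knockout 1. In bulk RNA, fewer cells of a type and less RNA per cell cannot be told apart, which holds for every level below.

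None of the 42 genes passed the test between genotypes, against 0.161% of all tested genes. All 42 reached 1 CPM in at least 2 libraries and entered the limma test, and edgeR's quasi-likelihood test on the recovered reads called 0 as well, beside 0.161% of all genes. DESeq2 called 1, Ccnd2 (2.38% of the 42), beside 0.543% of all genes. At an unadjusted p under 0.05 there were 2, Ccnd2 and Ccnd3, both lower in the knockouts, against 4.9% of all genes with limma. edgeR also gave 2, beside 4.8% of all genes, and DESeq2 gave 1, beside 2.67%. Of the log2 differences between knockout and control 22 were positive and 20 negative, from −0.75 to 0.21 with a median of 0.0065, beside a median of 0.0016 over all tested genes. The 95% confidence intervals of the 42 differences reached from −1.11 to 0.79. They leave room for differences that this design cannot resolve, and a missed threshold does not show equal levels.

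**Figure D1:**
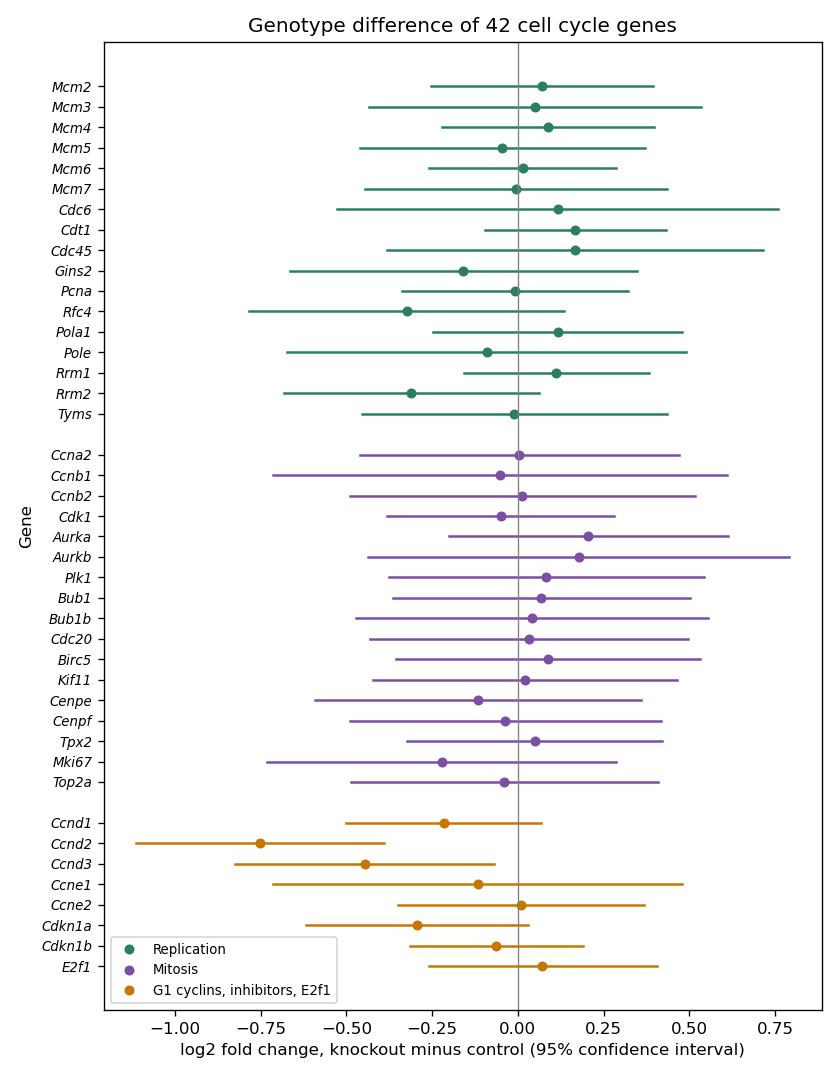
Log2 fold change of the knockout over the control libraries for each of the 42 genes (horizontal axis; points are estimates from limma on log2(CPM + 0.5), lines are 95% confidence intervals, n = 2 libraries each). Intervals of the replication and mitotic genes all span 0, and only those of Ccnd2 and Ccnd3 among the 42 lie entirely below it.

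The overlap of the libraries gives the same picture gene by gene. In 6 of the 42 genes (14.3%) both knockouts lay below both controls, beside 15.4% of all tested genes. These were Rfc4, Rrm2, Ccnd1, Ccnd2, Ccnd3 and Cdkn1a. In 1 gene (2.38%), Cdt1, both knockouts lay above both controls, beside 16.5% of all tested genes. The share of genes with both knockouts lower is close to that of the whole table, and the share with both higher is below it.

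Replication genes were present in all 4 libraries at levels that overlapped between genotypes. The 17 genes summed to 546.6 CPM in control 1, 498.7 in control 2, 603.3 in knockout 1 and 475.7 in knockout 2, so the knockout libraries gave both the highest and the lowest sum. The mean was 522.7 ± 33.87 CPM in the controls and 539.5 ± 90.23 CPM in the knockouts (SD, n = 2 each), or 103.2% of the control level. The exact 95% Poisson intervals of the 2 knockout sums, 590.9 to 615.7 and 465.7 to 485.7 CPM, did not overlap, so the gap between these libraries was larger than counting error. Of the 17 log2 differences 9 were positive and 8 negative, with a median of 0.0135, and 0 passed.

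Among the licensing and helicase genes, Mcm6, a subunit of the MCM ring, had the highest mean level per kilobase of annotated exon of the 42 genes. It was at 109.3, 98.42, 114.8 and 95.51 CPM in control 1, control 2, knockout 1 and knockout 2. Knockout 1 was the highest and knockout 2 the lowest, with both controls between them, and the log2 difference was 0.01 (95% confidence interval −0.26 to 0.29, limma adjusted p = 0.9997). Mcm3, another subunit of the ring, spread more, at 34.42, 31.99, 43.75 and 26.96 CPM in the same order. The controls again lay between the knockouts (log2 difference 0.05, interval −0.44 to 0.53, adjusted p = 0.9997). This order held for all 6 MCM subunits measured: knockout 1 was highest and knockout 2 lowest in each. Mcm2 ranged from 23.16 to 28.84 CPM, Mcm4 from 31.15 to 38.54, Mcm5 from 23.48 to 32.73 and Mcm7 from 24.84 to 34.84 CPM. Their sum was 267.4, 238.1, 293.5 and 225.1 CPM.

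Cdt1, which brings the MCM ring to origins, was at 42.47 and 46.48 CPM in the controls and 53.46 and 46.75 CPM in the knockouts. Knockout 2 exceeded control 2 by a small margin only, and the order was lost when the TMM scaling was left out (log2 difference 0.17, interval −0.10 to 0.43, adjusted p = 0.9997). Cdc6, its partner in licensing, was a low transcript at 4.94, 3.71, 6.07 and 3.59 CPM. Cdc45, the helicase activator, stood at 5.20, 4.69, 6.93 and 4.51 CPM. Gins2, a subunit of the GINS complex, was at 7.34, 8.33, 8.45 and 5.71 CPM. In these 3 genes too knockout 1 was the highest and knockout 2 the lowest. Some of these ranks lay within counting error. The Poisson intervals of knockout 2 and control 2 overlapped in Cdc6 and Cdc45, as did those of knockout 1 and control 2 in Gins2. Exons of Gins2 overlap those of Gse1 on the opposite strand over 67.3% of their length, and since the sources used here do not give the strand setting of the counting, its reads may be shared.

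The polymerase and clamp genes followed the same order in 3 of 4 cases. Pcna, the sliding clamp, was at 47.15, 39.20, 47.38 and 38.54 CPM. Its Poisson intervals overlapped between control 1 and knockout 1, and between control 2 and knockout 2. Pola1, the catalytic subunit of the priming polymerase, was at 24.35, 25.34, 31.22 and 23.27 CPM, and Pole, that of the leading-strand polymerase, at 10.39, 8.12, 11.02 and 6.69 CPM. Rfc4, a subunit of the clamp loader, departed from it, at 7.40, 5.74, 4.95 and 5.27 CPM. Both knockouts were below both controls for Rfc4, by −0.32 on the log2 scale (interval −0.78 to 0.14, limma adjusted p = 0.9997).

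Nucleotide supply was represented by 3 genes. Rrm1, the large subunit of ribonucleotide reductase, was at 96.96, 93.38, 113.8 and 93.01 CPM, and its S-phase partner Rrm2 at 24.42, 18.83, 18.21 and 16.25 CPM. For Rrm2 the knockouts lay below both controls, knockout 1 by less than the gap between the controls (log2 difference −0.31, interval −0.68 to 0.06, limma adjusted p = 0.9997). The subunits of this one enzyme thus had log2 differences of opposite sign, 0.11 for Rrm1 and −0.31 for Rrm2, neither of which passed. Tyms, which makes thymidylate, was at 8.57, 6.79, 8.25 and 6.96 CPM, with control 1 and knockout 1 the higher library of each genotype.

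The mitotic genes differed more between the libraries of 1 genotype than between the genotypes. The 17 genes summed to 837.6 CPM in control 1 and 578.0 CPM in control 2, and to 751.1 CPM in knockout 1 and 595.5 CPM in knockout 2. The first library of each genotype was therefore the high one, 1.449 times the second in the controls and 1.261 times in the knockouts. The mean was 707.8 ± 183.6 CPM in the controls and 673.3 ± 110.0 CPM in the knockouts (SD, n = 2 each), or 95.12% of the control level. Of the 17 log2 differences between genotypes 11 were positive and 6 negative, with a median of 0.0219 and a range of −0.22 to 0.21. None passed, and in none did the genotypes separate.

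**Figure D2:**
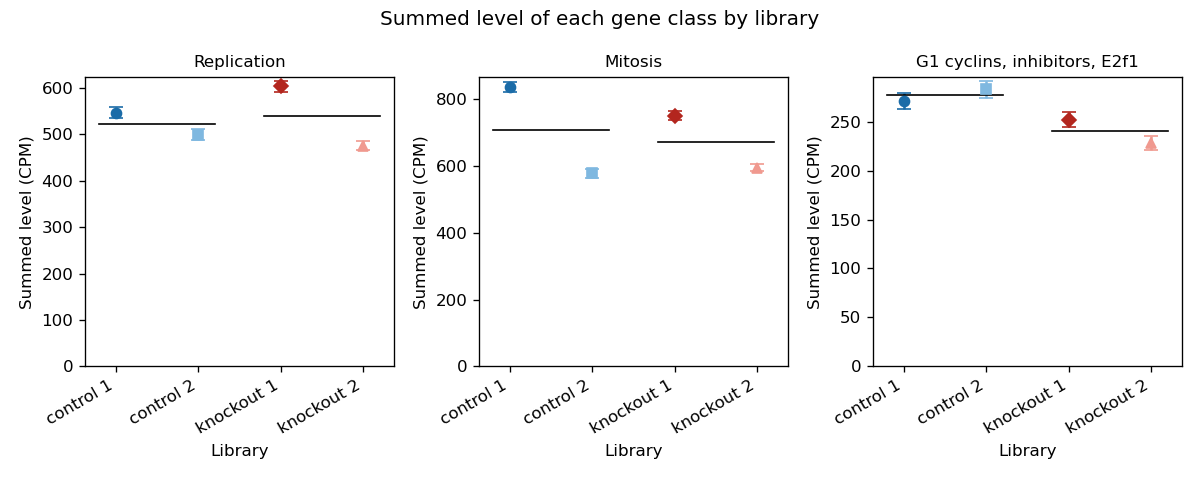
Summed level in CPM (vertical axis, from 0) of the 17 replication, 17 mitotic and 8 G1 genes in each of the 4 libraries (symbols). Error bars are exact 95% Poisson intervals, which cover counting error only, and black lines are the genotype means. The mitotic sums are 837.6 and 751.1 CPM in control 1 and knockout 1, above the 578.0 and 595.5 CPM of control 2 and knockout 2, while the G1 sums are lower in both knockouts.

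Mki67, the proliferation antigen that coats mitotic chromosomes, was at 242.4 and 142.2 CPM in the controls and 166.7 and 152.0 CPM in the knockouts. Control 1 stood alone, with a Poisson interval of 234.7 to 250.3 CPM, and the other libraries lay within 142.2 to 166.7 CPM. The genotype means were 192.3 ± 70.85 and 159.4 ± 10.36 CPM (log2 difference −0.22, interval −0.73 to 0.29, limma adjusted p = 0.9997). Top2a, the topoisomerase that untangles replicated chromosomes, was at 147.2 and 109.8 CPM in the controls and 148.0 and 103.5 CPM in the knockouts. Here the high libraries were alike and the low libraries were alike, across genotypes (log2 difference −0.04, interval −0.48 to 0.41).

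The mitotic cyclins and kinases were arranged likewise. Ccnb1, which with Cdk1 forms the mitotic kinase, was at 9.87 and 6.16 CPM in the controls and 9.50 and 5.93 CPM in the knockouts. Control 1 was 1.603 times control 2, and knockout 1 was 1.604 times knockout 2. Ccnb2 was at 15.26, 11.20, 15.71 and 11.09 CPM, and Cdk1 at 26.30, 24.36, 27.32 and 21.85 CPM. For each of these genes the first libraries of both genotypes lay above both of the second libraries. Ccna2, the cyclin of S phase and G2, was at 31.37, 27.72, 36.89 and 23.70 CPM. Aurka, the spindle pole kinase, was at 16.56, 14.77, 21.18 and 15.49 CPM, with the highest of the 17 differences between genotypes (0.21, interval −0.20 to 0.61, adjusted p = 0.9997). Its knockout values still bracketed control 1. Aurkb, the kinase of the chromosomal passenger complex, was at 9.48, 5.67, 9.77 and 7.18 CPM, and Plk1, the Polo kinase, at 12.01, 8.40, 11.22 and 10.17 CPM.

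Of the spindle, kinetochore and checkpoint genes, Bub1b, a kinetochore protein of the spindle checkpoint, gave one of the clearest cases. It was at 42.02 and 28.35 CPM in the controls and 42.50 and 29.74 CPM in the knockouts. The Poisson intervals were 38.84 to 45.38 and 39.28 to 45.91 CPM for control 1 and knockout 1, and 25.66 to 31.25 and 27.30 to 32.33 CPM for control 2 and knockout 2. The high pair and the low pair did not overlap, and each pair held 1 library of each genotype. Bub1, its partner kinase, was at 18.77, 13.37, 18.02 and 15.38 CPM. Cenpe, the kinetochore motor, was at 72.93, 48.23, 62.43 and 47.89 CPM, and the kinetochore protein gene Cenpf at 61.83, 42.35, 56.89 and 43.76 CPM. Kif11, the motor that separates the spindle poles, was at 40.46, 26.88, 35.97 and 31.20 CPM. All 4 of these had control 1 on top and knockout 1 next. Tpx2, a spindle assembly factor, was at 56.50, 40.04, 49.69 and 48.76 CPM, so that its 2 knockout values were nearly alike. Cdc20, which activates the anaphase-promoting complex, was at 11.04, 8.68, 11.55 and 8.70 CPM, and Birc5, the passenger protein survivin, at 23.57, 19.81, 27.72 and 19.08 CPM.

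In all 17 mitotic genes control 1 was above control 2 and knockout 1 above knockout 2, beside 21.5% of all tested genes with that order in both genotypes (49.6% in the controls alone and 49.9% in the knockouts alone). The ratios ran from 1.08 for Cdk1 to 1.704 for Mki67 in the controls, and from 1.019 for Tpx2 to 1.604 for Ccnb1 in the knockouts. The count was 17 also with unscaled CPM and with DESeq2 size factors. In all 17 the mean gap within a genotype exceeded the difference between genotypes, as it did in 68.1% of all tested genes, and the median gap was 0.402 on the log2 scale beside 0.163 over all tested genes. The replication genes held the order in 13 of 17 (76.5%), and the G1 genes in 3 of 8. The libraries share no stated day or animal by number, so the matching order of replicate 1 over replicate 2 is a description of 4 libraries, and genes of one pathway are not independent of each other.

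**Figure D3:**
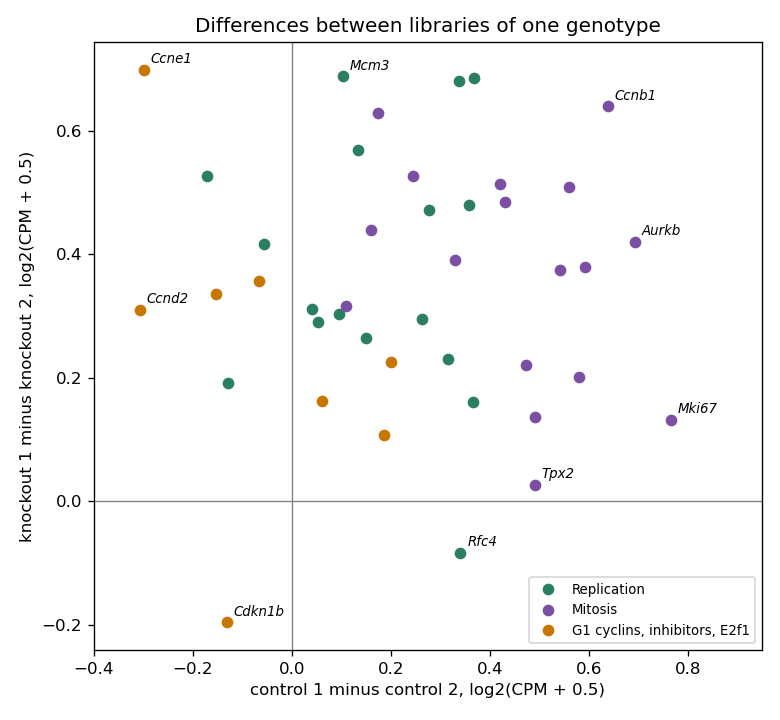
Difference between the libraries of 1 genotype on the log2(CPM + 0.5) scale, control 1 minus control 2 (horizontal axis) against knockout 1 minus knockout 2 (vertical axis), with 1 point per gene and colours for the 3 classes. All 17 mitotic genes lie to the right of and above 0, while the D-type cyclin Ccnd2 and the inhibitor Cdkn1b are among the G1 genes to the left of 0.

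The 2 classes did not rank the 4 libraries alike. Relative to the control mean, the median replication gene was at 0.075, −0.075, 0.234 and −0.156 on the log2 scale in control 1, control 2, knockout 1 and knockout 2. The median mitotic gene was at 0.246, −0.246, 0.218 and −0.208. Knockout 1 was the highest library in 14 of 17 replication genes and knockout 2 the lowest in 14 of 17. Over all 11781 tested genes these counts were 3055 and 2957. Such ranks take no account of counting error. Of the mitotic genes, control 1 was highest in 8 and knockout 1 in 9, and control 2 was lowest in 10 and knockout 2 in 7. The controls were thus farther apart in mitotic transcripts (median gap 0.492) than in replication transcripts (0.151), and the knockouts were apart in both (0.39 and 0.311). This difference between classes was not tested.

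**Figure D4:**
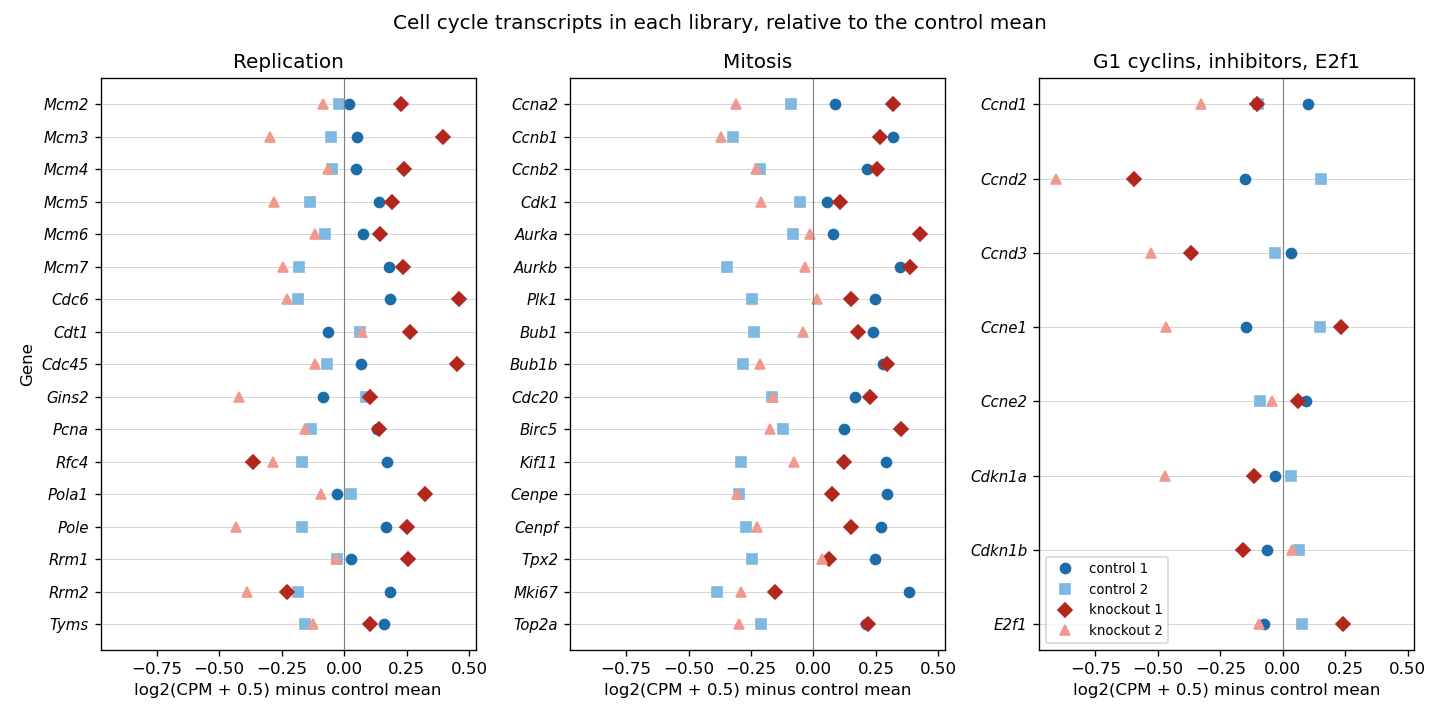
Level of each of the 42 genes in each library as log2(CPM + 0.5) minus the control mean (horizontal axis), in 3 panels for the replication, mitotic and G1 classes; each symbol is 1 library. In the mitotic panel control 1 and knockout 1 lie to the right of control 2 and knockout 2 in every row, and in the G1 panel the knockout symbols of Ccnd1, Ccnd2, Ccnd3 and Cdkn1a lie left of both controls.

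Other properties of the libraries were set beside this pattern. The summed macrophage markers were 3911 and 3329 CPM in the controls and 3738 and 4055 CPM in the knockouts, and 5 of 8 markers held the order of replicate 1 over replicate 2 in both genotypes. Lyz2, the lysozyme gene of macrophages and granulocytes, was one of these, picked after its values were seen, at 560.5, 343.6, 655.3 and 360.4 CPM. In 3 of the 8 markers knockout 2 was the highest library. The summed osteoclast markers were 62680 and 59740 CPM in the controls and 60630 and 75260 CPM in the knockouts, and 0 of 10 held that order. Knockout 2 had the highest value of 9 of the 10. Its read total was also the highest, and mitochondrially encoded genes took 3.13% of the signal in control 1, 2.27% in control 2, 1.38% in knockout 1 and 2.74% in knockout 2. Neutrophil lineage markers (7 of 9 with values, 6 tested) summed to 46.56, 85.82, 54.45 and 53.49 CPM, led by the granule gene Ngp. Of the erythroid markers 2 of 8 had values, led by the transferrin receptor gene Tfrc, which osteoclast precursors also express, at 6136, 5454, 7817 and 7531 CPM. The part of these in the differences between libraries was not tested.

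Promoters of the mitotic genes shared sequence features that the choice of genes did not use. Genes of late cell cycle phases are known for the CHR element, bound by the MuvB core complexes, together with CCAAT boxes bound by NF-Y, and genes of G1 and S phase for E2F sites. RefSeq windows on GRCm38.p6 were at hand for 33 of the 42 genes (36 windows), and the 250 bases before each start were searched on both strands. The CHR was searched as TTTGAA or TTTAAA, the CCAAT box as CCAAT, and the E2F site as TTTCCCGC, TTTCGCGC, TTTGCCGC or TTTGGCGC. Of the 14 mitotic windows 10 (71.4%) held a CHR, 13 (92.9%) a CCAAT box and 9 (64.3%) both, beside 25.2%, 33.8% and 8.78% of all 32851 windows of that length. An E2F match was in 1 mitotic window (7.14%), in 5 of 15 replication windows (33.3%) and in 1.86% of all windows. Of the 7 G1 windows 0 held an E2F match. Of the replication windows 3 (20.0%) held a CHR and 11 (73.3%) a CCAAT box, and of the 7 G1 windows 2 (28.6%) held each. Different motifs overlapped in 0 of the 36 windows, and matches to 1 motif overlapped each other in 2. These are matches of letters, not shown sites.

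The last 150 bases before the start are shown for 4 of the 9 mitotic genes whose windows held both a CHR and a CCAAT box, picked as examples after the matches were seen. They are written 5′ to 3′ on the gene's strand, with every match of the 3 motifs in capitals, on either strand (TTCAAA is TTTGAA and ATTGG is CCAAT read on the other strand). Ccnb1 spans chr13:100786487-100786636 (minus strand), Cdk1 chr10:69352913-69353062 (minus strand), Top2a chr11:99024190-99024339 (minus strand) and Kif11 chr19:37376232-37376381 (plus strand), all on GRCm38.p6.
Ccnb1: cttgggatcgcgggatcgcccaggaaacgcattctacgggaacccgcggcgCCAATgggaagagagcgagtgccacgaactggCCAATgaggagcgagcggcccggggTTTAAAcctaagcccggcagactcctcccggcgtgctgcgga
Cdk1: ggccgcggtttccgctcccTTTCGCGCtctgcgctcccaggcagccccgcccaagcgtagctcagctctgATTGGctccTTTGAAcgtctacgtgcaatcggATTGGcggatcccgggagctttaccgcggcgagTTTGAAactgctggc
Top2a: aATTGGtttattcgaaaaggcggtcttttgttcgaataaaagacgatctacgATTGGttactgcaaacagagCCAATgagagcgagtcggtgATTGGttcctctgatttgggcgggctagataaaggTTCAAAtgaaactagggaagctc
Kif11: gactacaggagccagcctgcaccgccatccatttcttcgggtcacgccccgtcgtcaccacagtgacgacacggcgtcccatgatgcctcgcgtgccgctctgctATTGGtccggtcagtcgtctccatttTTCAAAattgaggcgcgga
In the order shown, the CHR nearest the start lies 42, 15, 23 and 19 bases before it, and the nearest CCAAT box 67, 48, 58 and 45 bases before it. Of the 9 genes with both, the nearest CHR was closer to the start than the nearest CCAAT box in 5 (these 4 and Mki67) and farther from it in 4 (Ccnb2, Cdc20, Cenpf and Plk1). Cdk1 also holds the only E2F match of the mitotic windows, the capitals TTTCGCGC at 131 bases before the start. The starts of Kif11, Mki67, Ccnb2 and Plk1 were not matched to a GENCODE transcript, unlike those of 27 of the 36 windows. Their distances rest on the RefSeq start alone.

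Windows of 2 MCM genes, which ordered the libraries as knockout 1, the controls and knockout 2, are shown as examples of replication promoters, Mcm6 at chr1:128359706-128359855 (minus strand) and Mcm3 at chr1:20820313-20820462 (minus strand). The start of Mcm6 was likewise not matched to a GENCODE transcript.
Mcm6: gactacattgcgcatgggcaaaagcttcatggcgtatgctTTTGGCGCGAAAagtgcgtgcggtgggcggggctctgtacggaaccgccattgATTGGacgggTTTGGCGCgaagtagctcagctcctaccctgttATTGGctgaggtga
Mcm3: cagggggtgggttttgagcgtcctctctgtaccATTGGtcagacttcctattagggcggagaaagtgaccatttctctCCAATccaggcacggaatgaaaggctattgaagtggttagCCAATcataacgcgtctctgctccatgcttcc
Mcm6 holds 3 E2F matches, of which 2 overlap as TTTGGCGCGAAA, and 2 CCAAT boxes. Mcm3 holds 3 CCAAT boxes and no E2F match of these letters. Neither holds a CHR of the letters searched, whereas 2 of the 5 MCM genes with a window, Mcm2 and Mcm5, do.

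None of the 8 G1 genes passed limma, and their genotypes were apart in 4 and overlapped in 4. The 8 genes summed to 270.8 and 283.1 CPM in the controls and 252.2 and 228.4 CPM in the knockouts, 276.9 ± 8.713 against 240.3 ± 16.83 CPM (SD, n = 2 each), or 86.77% of the control level. Of the 8 log2 differences 2 were positive and 6 negative, with a median of −0.166. In 4 of 8 genes both knockouts lay below both controls, beside 15.4% of all tested genes. These were the 3 D-type cyclins and Cdkn1a.

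Ccnd2 (ENSMUSG00000000184.12; chromosome 6, 127125162 to 127152193, minus strand, GRCm38, protein-coding) encodes cyclin D2, a partner of Cdk4 and Cdk6 that growth factors induce. It was at 36.24 and 44.94 CPM in the controls, from 558 and 642 reads, and at 26.53 and 21.31 CPM in the knockouts, from 402 and 392 reads. Both knockouts lay below both controls, and the Poisson intervals of the nearest pair, 33.29 to 39.37 CPM in control 1 and 24.0 to 29.25 CPM in knockout 1, did not overlap. The means were 40.59 ± 6.152 and 23.92 ± 3.691 CPM (SD, n = 2 each), which puts the knockouts at 58.93% of the control level. The log2 difference was −0.75 (95% confidence interval −1.11 to −0.39). It had an unadjusted limma p of 0.00152 and did not pass after Benjamini-Hochberg adjustment over all genes (adjusted p = 0.2636 with limma and 0.25 with edgeR). It passed with DESeq2 (adjusted p = 0.0204) and with limma when knockout 1 was left out (adjusted p = 0.023), where the lone knockout library is assumed to vary as the controls do. The limma adjusted p was 1 when control 2 was left out.

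Ccnd3 (ENSMUSG00000034165.16; chromosome 17, 47505051 to 47599691, plus strand), cyclin D3, was a lower transcript, at 10.33 and 9.87 CPM in the controls and 7.72 and 6.85 CPM in the knockouts, from 117 to 159 reads. The controls lay close together and above both knockouts, with means of 10.10 ± 0.3227 and 7.285 ± 0.6165 CPM (SD, n = 2 each), or 72.13%. Unlike for Ccnd2, the Poisson intervals of the nearest pair overlapped, at 8.308 to 11.64 CPM in control 2 and 6.386 to 9.254 CPM in knockout 1. The log2 difference was −0.45 (interval −0.83 to −0.07, limma adjusted p = 0.9351). Ccnd1 (ENSMUSG00000070348.5; chromosome 7, 144929931 to 144939925, minus strand), cyclin D1, was at 63.39 and 55.09 CPM in the controls and 54.97 and 46.97 CPM in the knockouts. Knockout 1 lay just under control 2, so the groups were barely apart (log2 difference −0.22, interval −0.50 to 0.07, adjusted p = 0.9997). Exons of LTO1 on the opposite strand overlap 23.4% of those of Ccnd1, and opposite-strand exons overlap 7.9% and 4.1% of those of Ccnd2 and Ccnd3.

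Together the D-type cyclins, a grouping singled out after their values were seen, summed to 109.9 CPM in each control and to 89.22 and 75.13 CPM in the knockouts, or 74.76% of the control level. Their order, with both knockouts below both controls, was the same with unscaled CPM and with DESeq2 size factors. In the same libraries all 10 stromal markers had negative log2 differences, with a median of −0.707, and in 8 of 10 both knockouts lay below both controls, beside 15.4% of all tested genes. Their sum was 1857 and 2305 CPM in the controls and 1302 and 1190 CPM in the knockouts. None was at 0. Limma and edgeR called 1 of them each (with limma the fibrillin gene Fbn1, adjusted p = 0.03565), beside 0.161% of all tested genes with either. DESeq2 called 7, beside 0.543% of all tested genes. An unadjusted limma p under 0.05 was reached by 8, all lower, beside 4.9% of all tested genes in either direction. Col1a2 was at 679.2, 804.7, 506.0 and 451.0 CPM. Ccnd2 had the order of the stromal sum, control 2 highest and knockout 2 lowest. Ccnd1 and Ccnd3 did not, with control 1 highest and knockout 2 lowest. The part of the stromal transcripts in the D-type cyclin values was not tested.

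The E-type cyclins, which act with Cdk2 at the entry to S phase, did not share the pattern. Ccne1 was at 6.62, 8.26, 8.78 and 5.22 CPM and Ccne2 at 12.01, 10.50, 11.75 and 10.87 CPM, with the genotypes overlapping in both. Their log2 differences were −0.12 (interval −0.71 to 0.48) and 0.01 (interval −0.35 to 0.37). Cdkn1a, the p21 inhibitor that p53 induces, was at 37.80 and 39.55 CPM in the controls and 35.64 and 27.72 CPM in the knockouts. Both knockouts were lower, chiefly knockout 2 (81.92% of the control mean, log2 difference −0.29, interval −0.62 to 0.03, limma adjusted p = 0.9997). Cdkn1b, the p27 inhibitor of quiescent cells, overlapped, at 75.27, 82.46, 70.42 and 80.72 CPM. It was the only one of the 42 in which replicate 2 exceeded replicate 1 in both genotypes. E2f1, the transcription factor that activates replication genes, was at 29.09, 32.41, 36.36 and 28.70 CPM. Knockout 1 was its highest and knockout 2 its lowest library, as for most replication genes.

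The promoter window at the first start of Ccnd3 (chr17:47504901-47505050 (plus strand)) is shown beside those above, as the only D-type cyclin with an entry.
Ccnd3: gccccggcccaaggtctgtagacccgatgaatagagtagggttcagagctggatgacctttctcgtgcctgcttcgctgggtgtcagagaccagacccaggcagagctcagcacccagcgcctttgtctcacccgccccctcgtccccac
It held none of the motif letters searched, and a second Ccnd3 window held 1 CCAAT box.

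Levels of different genes can be compared only per length, here as CPM per kilobase of exon from GENCODE release M21. The length was the union of exons over all annotated transcripts of a gene, not that of the transcripts expressed. The ranks and class medians below depend on this choice. Rrm1, at 93.01 to 113.8 CPM, was divided by 11.01 kb, and Mcm6, at 95.51 to 114.8 CPM, by 4.67 kb. By the mean over the 4 libraries Mcm6 came first, with a range of 20.5 to 24.6, followed by Pcna at 16.1 to 19.7 and Mki67 at 14.1 to 24.1. The range of Mki67 overlapped both of the others, and in control 1 it was above Mcm6, at 24.1 against 23.4. Cdkn1b followed at 15.5 to 18.1 and Cdt1 at 13.5 to 17.0. At the other end were Pole at 0.599 to 0.987, Ccnd3 at 0.781 to 1.18 and Cdc6 at 0.686 to 1.16, which also overlapped. The D-type cyclins spanned much of this range, with Ccnd1 at 9.97 to 13.5 and Ccnd2 at 2.26 to 4.78, and did not overlap each other. The median gene of the replication, mitotic and G1 classes had nearly the same level, at 6.73, 6.63 and 6.66 CPM per kilobase.

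**Figure D5:**
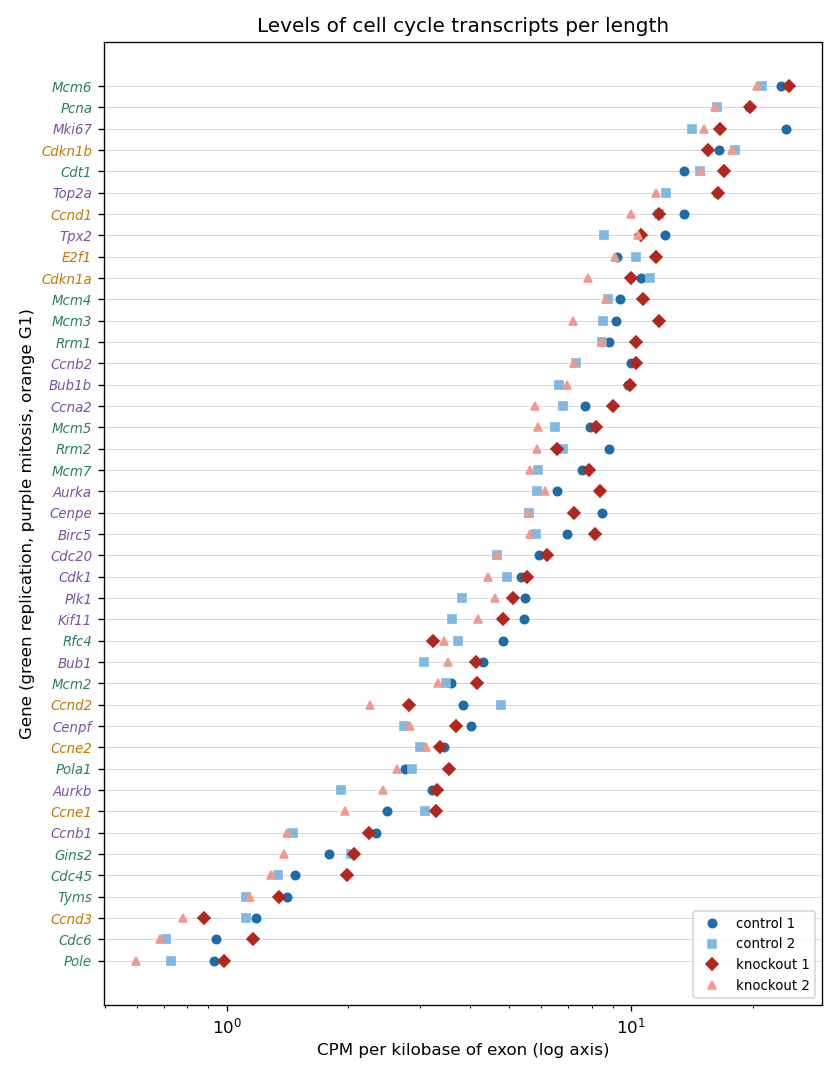
Level per length, in CPM per kilobase of exon (union over all annotated transcripts) on a log axis, of the 42 genes ordered by their mean. Each symbol is 1 library and the colour of the gene name gives the class. Mcm6 has the highest mean, with a range of 20.5 to 24.6 that overlaps that of Mki67, and Pole, Ccnd3 and Cdc6 are lowest.

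Further genes of the same pathways were read from wider lists, in which again 0 passed with limma, edgeR or DESeq2. Of 30 other replication genes 12 had positive and 18 negative log2 differences (median −0.032), 0 reached an unadjusted p under 0.05, and 13 held the order of replicate 1 over replicate 2 in both genotypes. Of these the smallest p belonged to Pole2, a subunit of the leading-strand polymerase, at 4.936 and 4.41 CPM in the controls and 3.762 and 3.425 CPM in the knockouts (limma adjusted p = 0.9997). Orc6, of the origin recognition complex, followed at 14.94, 16.52, 14.58 and 12.77 CPM (limma adjusted p = 0.9997). Of 32 other mitotic genes 21 were positive and 11 negative (median 0.0547), 0 reached that p, and 23 held the library order in both genotypes. Their sums were 709.6 and 576.2 CPM in the controls and 711.2 and 592.4 CPM in the knockouts, high and low in the same libraries as the 17 described above. Bub3, a checkpoint protein, was at 46.37, 41.23, 35.50 and 40.88 CPM (limma adjusted p = 0.9997), and Cks2, a Cdk-binding protein, at 6.235, 5.39, 3.96 and 5.11 CPM (limma adjusted p = 0.9997).

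Among 28 other G1 regulators 15 were positive and 13 negative (median 0.0294), and 2 reached an unadjusted limma p under 0.05, beside 4.9% of all tested genes. Lin52, a subunit of the MuvB core, was at 3.767 and 3.85 CPM in the controls and 5.412 and 5.49 CPM in the knockouts (log2 difference 0.47, limma adjusted p = 0.987). Myc, a transcription factor that growth factors induce, was at 23.38 and 21.14 CPM in the controls and 17.88 and 17.99 CPM in the knockouts (−0.30, limma adjusted p = 0.9997). In both genes, named for the smallest p of the list, the genotypes did not overlap, and neither passed. Over the 28 genes both knockouts lay below both controls in 4 (14.3%), beside 15.4% of all tested genes. Both lay above in 6 (21.4%), beside 16.5%. Of 12 genes of the p53 pathway, Trp53 itself and targets of p53, 3 were positive and 9 negative (median −0.11), and 0 reached that p. Phlda3, an inhibitor of Akt, was at 13.38, 15.75, 12.27 and 11.36 CPM (limma adjusted p = 0.9997), and Zmat3, an RNA-binding protein, at 21.95, 20.23, 18.54 and 17.67 CPM (limma adjusted p = 0.9997). Both, named for the smallest p of the list, lay lower in the knockouts, as Cdkn1a did. Over the 12 genes both knockouts lay below both controls in 3 (25%), beside 15.4% of all tested genes. Both lay above in 1 (8.33%), beside 16.5%. The 12 genes summed to 821.9 and 844.3 CPM in the controls and 847 and 781.4 CPM in the knockouts, so knockout 1 had the highest sum.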

How the data were processed

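The authors deposited 1 table of normalised signal for 12799 genes. The submitters' processing notes name STAR, featureCounts of Subread, edgeR and the build mm10 (GRCm38), with no versions given. Within a library, each deposited signal equalled a whole number times the value of 1 read (100% of values within 0.001 reads), which gave back whole reads, and TMM-scaled CPM computed from these matched the deposited signal, so values are called CPM. The sources used here do not give the authors' annotation, strand setting or low-value filter.

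Genotypes were compared with limma 3.58.1 (R 4.3.3), with an intensity trend on log2(CPM + 0.5) over the 11781 genes reaching 1 CPM in 2 or more libraries, 2-sided, with Benjamini-Hochberg adjustment over all of them. Fold changes on this scale understate those of low genes. A permutation of 2 against 2 libraries cannot go below p = 0.333. The fit was repeated with other pseudocounts, filters, scalings and models of the variance, without each library, the replicate number as a block, and edgeR 4.0.16 and DESeq2 1.42.0 on the recovered reads. Fitting was tested on simulated data, in which every gene had the same set spread, not estimated from these libraries. There 43.8% of genes with a true fold of 0.667 and 50% of those with 1.5 were called. At a true fold of 2 the share was 92%, and it was 0.061% of unchanged genes. These shares need not hold for the 4 libraries. Every pair of libraries differed beyond sampling noise (chi-square per degree of freedom 11.2 to 22.5), and all carry the same batch value. Poisson intervals cover counting error only.

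Named are all 42 members, Piezo1, the 2 genes with the smallest p of each wider pathway list, and the highest gene of each marker list and markers at 0; Lyz2 and Fbn1 were named after their values were seen. The members and lists were chosen with earlier results of these data known. Positions, exon lengths and overlaps came from GENCODE M21, in which all 42 matched, and promoters from RefSeq (GRCm38.p6). Python 3.11.15 was used for these. Exons of 13 members overlap a gene on the opposite strand and those of 2 a gene on the same strand.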

Additional observations from a re-analysis of the deposited data

How the results depend on the processing

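Of the 42 genes 0 passed with limma under other pseudocounts, filters, scalings and variance models, and with edgeR. Ccnd2 alone passed with DESeq2 (1 member, adjusted p = 0.0204), with the replicate number as a block (1, adjusted p = 0.0172) and without knockout 1, so that leaving out a library gave 0 to 1. Over the libraries left out its adjusted p ran from 0.023 to 1 and its log2 difference from −0.906 to −0.596; a genotype left with 1 library is assumed to vary as the other does. Over all genes, 5 were called higher and 14 lower. These counts were 2 and 2 without the intensity trend, 10 and 54 with DESeq2, 18 and 71 with the replicate block, and 2 to 16 and 4 to 60 with a library left out. The cause was not tested. Deviations of same-numbered libraries had a correlation of −0.00159 over genes, so the numbers are not shown to pair the libraries. The class medians ran from −0.156 to 0.234 for replication, −0.208 to 0.234 for mitosis and −0.397 to −0.11 for G1 with a library left out.

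With each library left out in turn, 35 of the 42 genes took both signs, and the log2 differences ran as follows: Mcm2 −0.084 to 0.227, Mcm3 −0.295 to 0.394, Mcm4 −0.064 to 0.239, Mcm5 −0.281 to 0.19, Mcm6 −0.118 to 0.145, Mcm7 −0.245 to 0.234 and Cdc6 −0.227 to 0.458. Further ranges were Cdc45 −0.117 to 0.45, Gins2 −0.422 to 0.105, Pcna −0.156 to 0.139, Pola1 −0.0926 to 0.324, Pole −0.431 to 0.25, Rrm1 −0.0327 to 0.257 and Tyms −0.168 to 0.148. Others ran over Ccna2 −0.309 to 0.318, Ccnb1 −0.371 to 0.268, Ccnb2 −0.229 to 0.255, Cdk1 −0.208 to 0.108, Aurka −0.0133 to 0.426, Aurkb −0.169 to 0.525 and Plk1 −0.163 to 0.329. The next were Bub1 −0.168 to 0.306, Bub1b −0.238 to 0.322, Cdc20 −0.162 to 0.227, Birc5 −0.175 to 0.352, Kif11 −0.269 to 0.313, Cenpe −0.412 to 0.179 and Cenpf −0.306 to 0.234. The last were Tpx2 −0.197 to 0.295, Mki67 −0.605 to 0.162, Top2a −0.296 to 0.218, Ccne1 −0.466 to 0.232, Ccne2 −0.0847 to 0.101, Cdkn1b −0.161 to 0.0349 and E2f1 −0.0958 to 0.24. Differences near 0 took the other sign with unscaled CPM in Mcm6 (−0.0103), Ccna2 (−0.019), Ccnb2 (−0.00961), Kif11 (−0.0016) and Ccne2 (−0.0144), with edgeR in Kif11 (−0.00703), and with DESeq2 in Kif11 (−0.00572) and Mcm7 (8.1e-05). Unscaled CPM put the median of all genes at −0.021. Ccnd1, Ccnd2, Ccnd3, Cdkn1a, Rfc4, Rrm2 and Cdt1 kept their sign in every alternative. With 2 libraries a genotype, how far the spread between libraries and the depth each limit the precision was not tested.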
